A study of Mus musculus with 6 samples.

Results

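The variable part of an antibody heavy chain begins with a V segment, and the mouse heavy chain locus carries a long array of them. The data described here are the counts of 127 such segments in 6 RNA libraries of activated mouse B cells. They were selected on their own counts: a row of the raw count table was kept when its GENCODE M21 symbol began with Ighv, its biotype was IG_V_gene or IG_V_pseudogene and its counts summed to 50 or more over the 6 libraries. Of 54838 rows, 183 were Ighv V segments, and 127 of these passed, made up of 104 of 113 annotated as functional V genes and 23 of 70 annotated as pseudogenes. Another 24 rows held 1 to 49 counts and 32 held none. The lowest segment kept was Ighv3-7, with 53 counts, and the highest left out was Ighv8-7, with 47. Which segments are present, and their summed counts, are therefore set by the choice and were not tested.

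The 6 libraries came from naive B cells sorted from mouse spleen. The cells of 10 male mice, 3 months old and 9 days after immunisation with sheep red blood cells, were combined over 2 independent experiments, and the labels do not give the strain or say which animals each library holds. Cultures ran for 5 days with interleukin 4 at 80 ng/ml and an antibody to CD40 at 5 µg/ml, which replace signals from helper T cells. All 6 libraries share that culture. DMSO, the solvent, was given to 3 of them (replicates A, B and C), and 1 µM of Cpd10, which according to the labels inhibits FOXO1, a transcription factor, to the other 3, in both cases over the last 48 h, from day 3 to day 5.

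A developing B cell joins 1 V segment to a D and a J segment by cutting the DNA with the RAG1 and RAG2 enzymes, and the joined gene is then transcribed from the promoter of that V segment. Daughter cells keep the rearrangement, so counts over V segments in mature B cells reflect both how many cells carry a segment and how much RNA each makes. These cannot be told apart in bulk libraries. Segments are grouped into families by sequence likeness, given by the number after Ighv. Families such as Ighv5 and Ighv2 lie near the D segments, while the large Ighv1 family fills the far side of the array. In activated B cells the joined gene may switch from the IgM constant region to IgG or IgE, which leaves its V segment in place.

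All 127 segments lie on the minus strand of chromosome 12 (GRCm38), from 113572927 to 116010093, with annotated exonic lengths of 329 to 480 bases and a median of 353. Nearest to the D segments is Ighv5-1 and farthest is Ighv1-86. Of the members, 124 had their closest relative by sequence within their own family, and the median identity between segments of different families was 61.9%. Within Ighv1 the median over 2211 pairs was 84.3%. The segments below are shown because they lead the 2 kinds of usage seen in the libraries: Ighv1-26 was the most abundant segment in 3 libraries, Ighv5-6 in the other 3, and Ighv2-9 was scarce in the former and abundant in the latter. Each is given as bases of the GENCODE M21 transcript, 5′ to 3′, ending at the last annotated base, with capitals marking the codons for tyrosine, a further tyrosine or a phenylalanine, and the conserved cysteine that end the framework just before the joined D segment.
Ighv1-26: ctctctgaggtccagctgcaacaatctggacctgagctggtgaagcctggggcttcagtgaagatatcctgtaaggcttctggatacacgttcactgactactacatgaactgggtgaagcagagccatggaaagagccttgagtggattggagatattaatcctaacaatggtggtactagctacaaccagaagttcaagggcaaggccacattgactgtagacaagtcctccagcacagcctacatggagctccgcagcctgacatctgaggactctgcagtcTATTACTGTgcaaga
Ighv5-6: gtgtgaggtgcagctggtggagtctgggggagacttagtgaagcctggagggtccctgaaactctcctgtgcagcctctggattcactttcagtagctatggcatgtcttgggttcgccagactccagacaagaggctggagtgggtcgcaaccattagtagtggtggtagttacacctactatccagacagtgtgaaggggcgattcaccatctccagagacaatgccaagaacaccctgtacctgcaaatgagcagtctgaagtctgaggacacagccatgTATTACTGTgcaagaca
Ighv2-9: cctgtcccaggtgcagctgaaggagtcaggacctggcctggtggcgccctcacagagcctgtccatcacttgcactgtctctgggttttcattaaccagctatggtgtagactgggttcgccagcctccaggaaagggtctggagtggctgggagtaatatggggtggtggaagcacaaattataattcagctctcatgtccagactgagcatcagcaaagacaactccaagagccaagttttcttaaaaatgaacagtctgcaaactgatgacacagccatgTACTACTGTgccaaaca

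One of 4 spellings of this closing motif (TATTACTGT, TATTTCTGT, TACTACTGT or TACTTCTGT, searched on the sense strand after base 200) was found in 96 of the 104 functional members and 18 of the 23 pseudogene members, and in 136 of all 183 Ighv rows. The sequences below show in-frame stop codons in 2 abundant rows annotated as pseudogenes, each beside a functional segment. In Ighv1-14 the capitals mark a stop codon, the fifth codon from its first ATG, and in Ighv1-26, shown for the same 60 bases, the codon at that place. In Ighv3-2 the capitals mark the first in-frame stop, codon 101 from its first ATG, in the last 169 bases. Ighv3-1, its closest relative at 95.4% identity, is shown from the same base without capitals. The stretch is 169 bases in Ighv3-2 and 170 in Ighv3-1, and Ighv3-2 lacks a base before this stop. The same TGA bases also stand in Ighv3-1, but out of frame, and that row had 0 in-frame stops. From the first ATG in the first 90 bases, 19 of the 20 pseudogene members that had one met an in-frame stop, against 5 of 103 functional members. The first ATG need not be the start codon, so this is a search and not a reading of the protein.
Ighv1-14: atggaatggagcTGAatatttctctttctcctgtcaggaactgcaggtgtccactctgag
Ighv1-26: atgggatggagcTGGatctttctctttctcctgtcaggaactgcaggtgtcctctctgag
Ighv3-2: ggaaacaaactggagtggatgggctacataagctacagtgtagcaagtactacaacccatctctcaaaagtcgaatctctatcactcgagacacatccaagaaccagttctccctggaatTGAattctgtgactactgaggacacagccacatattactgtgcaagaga
Ighv3-1: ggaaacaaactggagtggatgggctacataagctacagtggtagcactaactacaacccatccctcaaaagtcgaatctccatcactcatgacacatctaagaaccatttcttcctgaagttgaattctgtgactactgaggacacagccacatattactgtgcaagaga

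Before any comparison, the libraries have to be described, because they fall apart in a way the treatment does not follow. DMSO A, DMSO C and Cpd10 A are called set 1 here. The remaining 3 (DMSO B with Cpd10 B and C) are called set 2. The division is not in the labels. It was made on 54409 rows that are not immunoglobulin genes, as the split into 3 and 3 with the most rows at 3 counts or fewer in 1 side and 50 or more in the other. It gave 5 such rows (Sycp1, Gm12312, Gm14287 and Gm45104, found in set 2, and Rnf150, found in set 1), against 1 for the next division. The first principal component of 12757 non-immunoglobulin genes carried 50.2% of the variance and separated the same libraries. Each set holds libraries of both treatments, so treatment can be compared within a set, but 1 library stands alone on its side in each. What the sets are was not tested.

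Segment usage, the share of all Ighv counts that a segment takes, was nearly the same within a set and far apart between sets. The measure of distance used here is the share of usage that would have to move from some segments to others to turn the usage of a library into that of another. DMSO A differed from DMSO C by 6.04 percentage points, and Cpd10 B from Cpd10 C by 4.55 points. Within a set, the 4 pairs of 1 DMSO and 1 Cpd10 library differed by 4.24 to 5.54 points, a range that overlaps the pairs of like treatment. Between sets, the 4 pairs of like treatment differed by 39.7 to 40.3 points and the 5 pairs of unlike treatment by 39.6 to 40.5 points. Of the 127 segments, 104 had usage shares that did not overlap between the sets, 60 higher in set 2 and 44 higher in set 1. Only 2 segments, Ighv3-5 and Ighv12-3, had shares that did not overlap between DMSO and Cpd10. In CPM (counts scaled by the normalised library size), 35.9% of all 15136 genes tested below did not overlap between the sets and 14.6% did not between treatments.

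**Figure D1:**
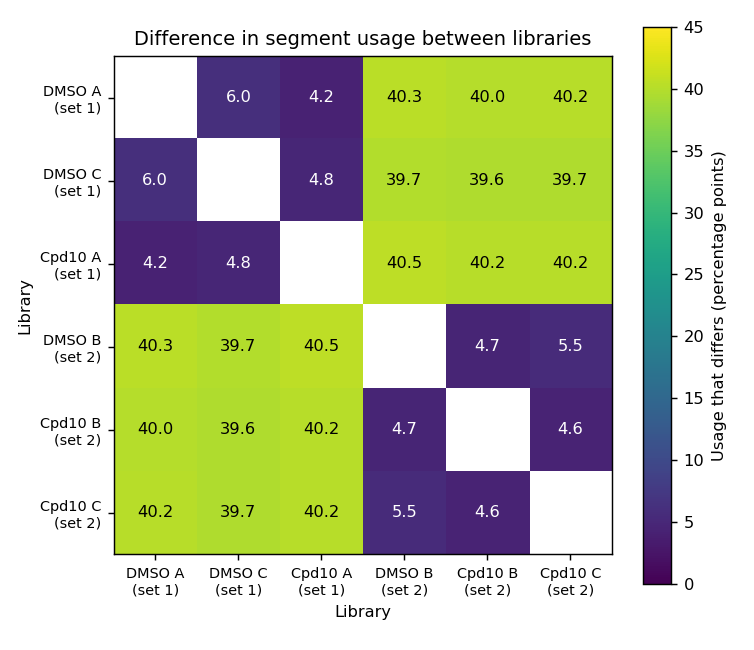
Each cell gives the usage that differs between the library of its row and that of its column, in percentage points over the 127 segments, and the colour repeats the value. The libraries form 2 blocks, with 4.2 to 6.0 points inside a block and 39.6 to 40.5 points between blocks, and DMSO and Cpd10 libraries lie in both.

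On that CPM scale, 93 of the 122 Ighv members that passed the expression filter of the test did not overlap between the sets, beside the 35.9% of genes. Mean CPM differed at least 2-fold between the sets in 10.2% of the genes and in 80 of the 122 members. DMSO and Cpd10 did not overlap in 1 of the 122 members, Ighv1-84. The 5 members that did not pass the filter were Ighv11-1, Ighv1-27, Ighv8-6, Ighv8-9 and Ighv1-79. Passing depends on counts, so these member counts describe the 122 and not all 127.

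Ighv1 was the most used family in every library. It took 60.5%, 35.0% and 60.6% of Ighv counts in DMSO A, B and C, against 61.4%, 34.2% and 34.0% in Cpd10 A, B and C. The high values are those of set 1 (mean 60.8 ± 0.482%, SD, n = 3 libraries) and the low ones those of set 2 (34.4 ± 0.491%), and the treatments overlap. Counting error was small beside this: the 95% Wilson interval in DMSO A was 60.3 to 60.8%, and in DMSO B 34.6 to 35.3%. Such intervals cover counting error only. The family holds 67 of the 127 segments, with none among the 42 members nearest the D segments. Scaled by segment length, its mean share over the libraries was 47.7%, against 47.6% unscaled.

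Ighv5 and Ighv2, which lie near the D segments, were higher in set 2. Ighv5, whose 10 members all lie among the nearest 42, took 9.63%, 17.9% and 9.74% in DMSO A, B and C, against 9.62%, 18.4% and 17.8% in Cpd10 A, B and C. Its mean was 1.87-fold higher in set 2. Ighv2, with 8 members in the same stretch, took 4.87%, 13.8% and 5.06% in DMSO and 5.22%, 14.6% and 14.2% in Cpd10, 2.81-fold higher in set 2. The shares of both families were high in the set 2 libraries of either treatment. Not every family near the D segments was higher in set 2: Ighv11, with its 2 members among the nearest 42, overlapped between the sets. Ighv6, with 0 members there, was higher in set 2 without overlap (3.02 ± 0.0960% against 2.69 ± 0.187% in set 1).

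Ighv3 followed with 4.78%, 8.55% and 5.01% in DMSO and 4.60%, 8.76% and 9.30% in Cpd10. Ighv9 took 5.29%, 7.74% and 4.35% in DMSO and 4.94%, 7.42% and 7.34% in Cpd10. Ighv14 took 3.23%, 4.07% and 3.17% in DMSO and 3.18%, 4.09% and 4.64% in Cpd10. In these families too the 3 set 2 libraries lay above the 3 of set 1. In Ighv3 much of the gap was the pseudogene Ighv3-2, described below: its 6 functional members alone took 4.76%, 5.38% and 4.99% in DMSO and 4.58%, 5.46% and 5.60% in Cpd10, still without overlap between the sets. Ighv4, a family of 2 members, took a mean of 0.463 ± 0.0845% in set 1 and 1.01 ± 0.0441% in set 2. That difference rests on the pseudogene Ighv4-2, and the functional Ighv4-1 went the other way without overlap, from 0.446 ± 0.0792% in set 1 to 0.256 ± 0.0386% in set 2. Ighv12 took 0.0550 ± 0.00996% and 0.234 ± 0.0207%, a 4.26-fold difference. It too rests on pseudogenes, Ighv12-1 (6 counts in set 1 and 132 in set 2) and Ighv12-2 (0 and 191 counts). Ighv12-3, the functional member, which is used by B1 cells that bind phosphatidylcholine, took 0.0541 ± 0.00999% and 0.0742 ± 0.0233%, and its sets overlap.

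Ighv13, with Ighv13-2 as its only member, was the other family beside Ighv1 that was higher in set 1. It took 0.327%, 0.113% and 0.327% in DMSO A, B and C, against 0.252%, 0.131% and 0.104% in Cpd10 A, B and C. Of the 15 families, 11 did not overlap between the sets, 9 of them higher in set 2 and 2 higher in set 1. Ighv8, Ighv10, Ighv11 and Ighv15 did overlap. Ighv8 took 3.67%, 3.23% and 3.39% in DMSO and 3.78%, 3.38% and 3.49% in Cpd10. Over functional members alone, 7 families were higher in set 2 without overlap, 3 were higher in set 1 (Ighv1, Ighv4 and Ighv13) and 5 overlapped. Of the 15 families, 0 separated DMSO from Cpd10.

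**Figure D2:**
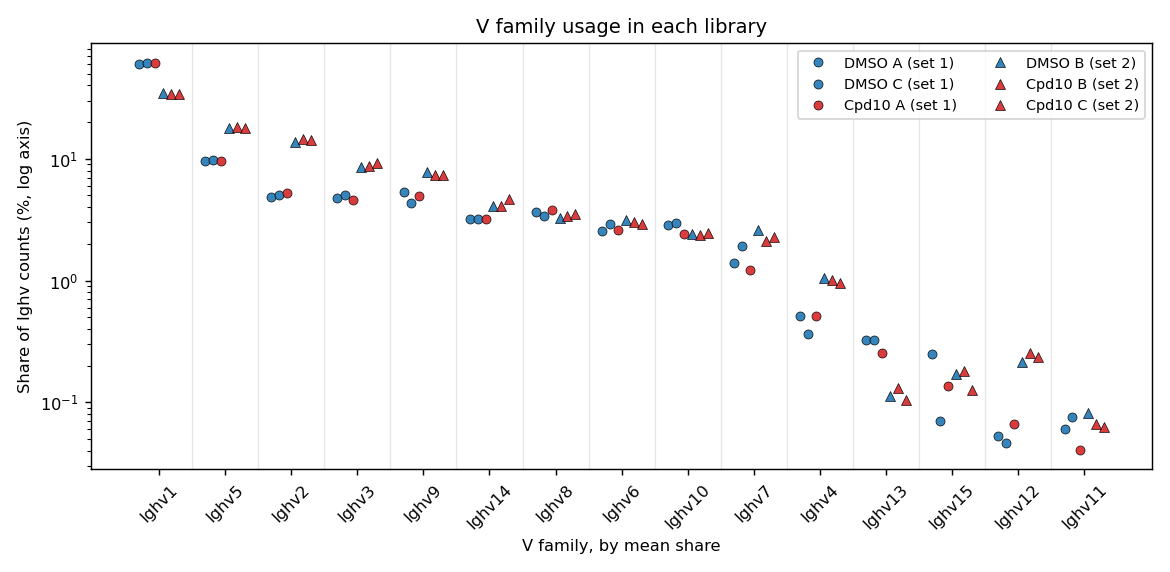
Points give the share of Ighv counts (%, log axis) taken by each V family, in order of mean share, with 1 point per library. Colour gives the treatment and shape the library set: circles and triangles separate in 11 of 15 families, from Ighv1 (60.8 against 34.4%) to Ighv12, while the colours mix in all 15.

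The exact two-sided permutation test over the 6 libraries cannot give a p below 0.1 with 3 against 3, so no family could pass 0.05. Ighv1 differed by -8.81 percentage points, Cpd10 minus DMSO (52.0 ± 14.8% in DMSO, 43.2 ± 15.7% in Cpd10, exact permutation p = 0.6, 0.875 after Benjamini-Hochberg adjustment over the 15 families). Within the sets the difference went both ways, 0.83 points higher in Cpd10 in set 1 and 0.83 points lower in set 2. These were the largest differences of any family within either set. Ighv2 was 3.42 points higher in Cpd10 (exact permutation p = 0.2, adjusted 0.875), but by 0.255 points in set 1 and 0.586 points in set 2. Set 1 holds 2 DMSO libraries and 1 Cpd10 library and set 2 the reverse, so the pooled difference also carries the difference between the sets. In 7 of the 15 families, the difference had the same sign in both sets.

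Single segments behaved less evenly than their families. Ighv1-26 was the leading segment of set 1, with 7.11% and 6.84% in DMSO A and C and 7.23% in Cpd10 A, against 2.13% in DMSO B and 1.81% and 2.10% in Cpd10 B and C. Ighv5-6, the leading segment of set 2, took 5.91% in DMSO B and 5.69% and 5.23% in Cpd10 B and C, against 1.47%, 1.41% and 1.48% in DMSO A, DMSO C and Cpd10 A. They held places 1 and 3 by mean share over all libraries, per length as well. Ighv9-3, in place 2 on both scales, was closer between sets, with a mean of 3.69 ± 0.279% in set 1 and 5.12 ± 0.242% in set 2.

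The next places by mean share went to Ighv1-82, Ighv5-17, Ighv3-6, Ighv1-9, Ighv5-4, Ighv2-9, Ighv2-2, Ighv1-64 and Ighv1-80. Ighv2-9 differed most among these, from 0.348%, 0.354% and 0.386% in DMSO A, DMSO C and Cpd10 A to 5.05%, 4.86% and 4.87% in DMSO B, Cpd10 B and Cpd10 C, a 13.6-fold difference between set means. Ighv1-64 went the other way, from 3.9 ± 0.102% in set 1 to 1.02 ± 0.127% in set 2, as did Ighv1-80 (3.53 ± 0.239% to 1.13 ± 0.133%) and Ighv1-82 (4.77 ± 0.331% to 1.75 ± 0.0895%). Ighv1-9 was the least divided of the 12, with means of 2.82% in set 1 and 3.05% in set 2, and its sets overlap. The 12 leading segments of each library held 41.2 to 42.9% of its Ighv counts.

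Families were not uniform inside. In Ighv1, 33 members were higher in set 1 without overlap, 24 were higher in set 2 and 10 overlapped. In Ighv5, 9 of 10 were higher in set 2, and Ighv5-16 was the exception, at 1.12% and 1.20% in DMSO A and C and 1.13% in Cpd10 A, but 0.155% in DMSO B and 0.214% and 0.185% in Cpd10 B and C. In Ighv2, 7 of 8 were higher in set 2. Among the 91 members of 500 or more counts, 52 differed at least 2-fold in mean share between the sets, whereas 6 spanned over 2-fold within set 1 and 5 within set 2.

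Pseudogenes differed strongly between the sets. Together the 23 pseudogene members took 0.291%, 0.174% and 0.280% of Ighv counts in DMSO A, DMSO C and Cpd10 A, and 7.09%, 7.13% and 7.64% in DMSO B, Cpd10 B and Cpd10 C. Of the 23, 22 had a higher mean share in set 2, the exception being Ighv1-38, against 51 of the 104 functional members. Most of the 23 met the 50-count rule only through set 2, among them Ighv12-2, Ighv3-7 and Ighv1-86 with 0 counts in set 1. The tally is thus largely set by the choice of members. It is given as a description and not as a comparison with the functional members. Ighv3-2 alone took 3.15% in DMSO B and 3.28% and 3.66% in Cpd10 B and C, and 0.0229%, 0.0169% and 0.0133% in DMSO A, DMSO C and Cpd10 A. That made it 190-fold higher in set 2, where it carried 2280, 2160 and 2317 counts.

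Ighv1-14, with the early stop shown above, held 3, 13 and 1 counts in DMSO A, DMSO C and Cpd10 A, and 1155, 815 and 825 in DMSO B, Cpd10 B and Cpd10 C. Ighv4-2 held 27, 29 and 33 counts in the set 1 libraries and 543, 514 and 462 in those of set 2, and Ighv1-33 held 3 in each library of set 1 and 227, 209 and 264 in set 2. An annotation as a pseudogene is that of the reference genome, and whether the RNA in these libraries carries the same stops was not tested, since the files hold counts and no reads. The division is not confined to pseudogenes: among the 8 members with the highest ratio between any 2 libraries, functional Ighv8-11 and Ighv1-67 were also higher in set 2, Ighv1-62-2 and Ighv1-36 higher in set 1. Ighv1-67 took 0.084%, 0.0575% and 0.0943% in DMSO A, DMSO C and Cpd10 A, against 1.10%, 1.09% and 1.03% in DMSO B, Cpd10 B and Cpd10 C.

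By the rule of 3 counts or fewer in every library of one set and 50 or more in the other together, 8 members were found in set 2 only (Ighv7-2, Ighv12-2, Ighv3-7, Ighv6-7, Ighv1-21-1, Ighv1-27, Ighv1-33 and Ighv1-86) and 0 in set 1 only. These 8 held 9 counts or fewer in set 1 together, so they met the 50-count rule for members only through set 2. The tally and the ratios below are descriptions of members chosen on these same counts. Ighv12-2, Ighv3-7 and Ighv1-86 had 0 counts among 575218 Ighv counts in set 1. Against a floor of 3 counts over that set, their shares in set 2 (191, 53 and 118 of 201574 counts) were at least 182-fold, 50.4-fold and 112-fold higher. The opposite pattern was missed by 1 count in Ighv8-6, with 10, 24 and 18 counts in DMSO A, DMSO C and Cpd10 A and 4, 0 and 0 in DMSO B, Cpd10 B and Cpd10 C. Ighv8-9 missed it as narrowly, with 0, 64 and 34 counts in the former libraries and 2, 4 and 4 in the latter. Ighv1-49, at higher counts, held 114, 211 and 90 in set 1 and 4, 8 and 0 in set 2.

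**Figure D3:**
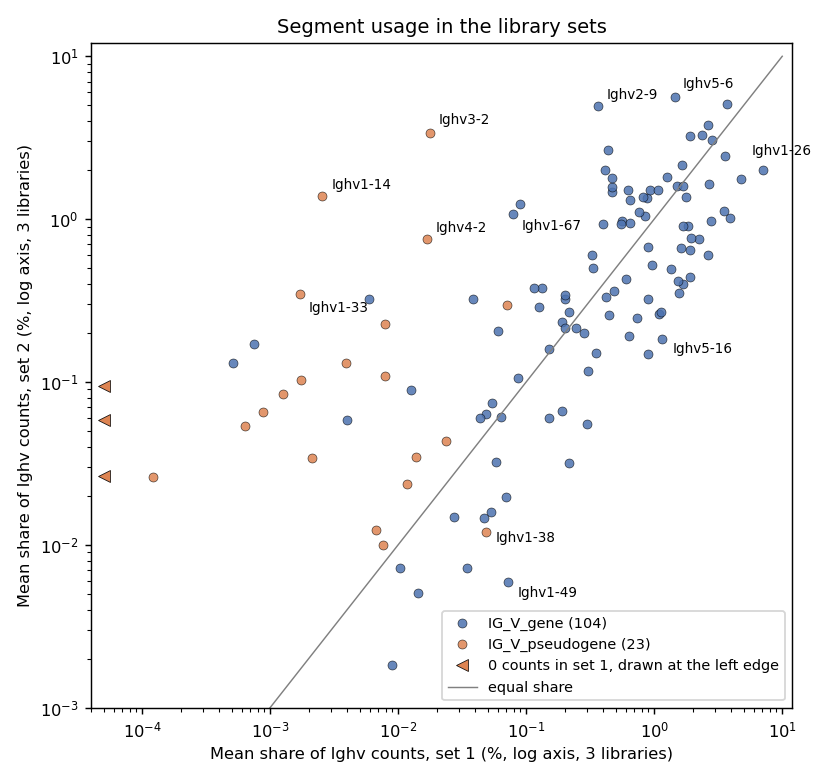
Each point is 1 of the 127 segments, placed by its mean share of Ighv counts (%, log axes) over the 3 libraries of set 1 and the 3 of set 2, with the line marking equal shares. Pseudogenes (orange) lie above the line except Ighv1-38, Ighv3-2 reaching 3.36% in set 2, while functional segments (blue) fall on both sides of it, Ighv1-26 at 7.06% in set 1. Members were kept on counts summed over both sets, and most pseudogenes passed only through set 2.

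Along the locus the division followed position in part. The 42 members nearest the D segments took 29.4%, 54.0% and 29.2% of Ighv counts in DMSO A, B and C, against 29.0%, 54.6% and 54.6% in Cpd10 A, B and C. The middle 42 took 30.4%, 27.6% and 31.2% in DMSO and 30.9%, 26.7% and 26.9% in Cpd10. The 43 farthest took 40.3%, 18.4% and 39.6% in DMSO and 40.1%, 18.7% and 18.5% in Cpd10. Usage near the D segments was high in set 2 and usage at the far end high in set 1, in libraries of both treatments.

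Among members of 500 or more counts, 27 of 32 near ones had a higher mean share in set 2, 15 of 28 in the middle and 7 of 31 at the far end, with median ratios of set 2 to set 1 of 1.72, 1.06 and 0.367. Across these 91 segments, Spearman's correlation of that ratio with rank from the D segments was -0.52. The segments share the same 6 libraries and are given as a description. The 500-count cut was on counts summed over both sets, and some segments reached it only through set 1 or only through set 2. Between treatments, the nearest 42 were 8.56 percentage points higher in Cpd10 (37.5 ± 14.2% in DMSO, 46.1 ± 14.8% in Cpd10, exact permutation p = 0.4, 0.5 adjusted over 3 summary measures). Within set 1 they were -0.315 points apart and within set 2 0.666 points.

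**Figure D4:**
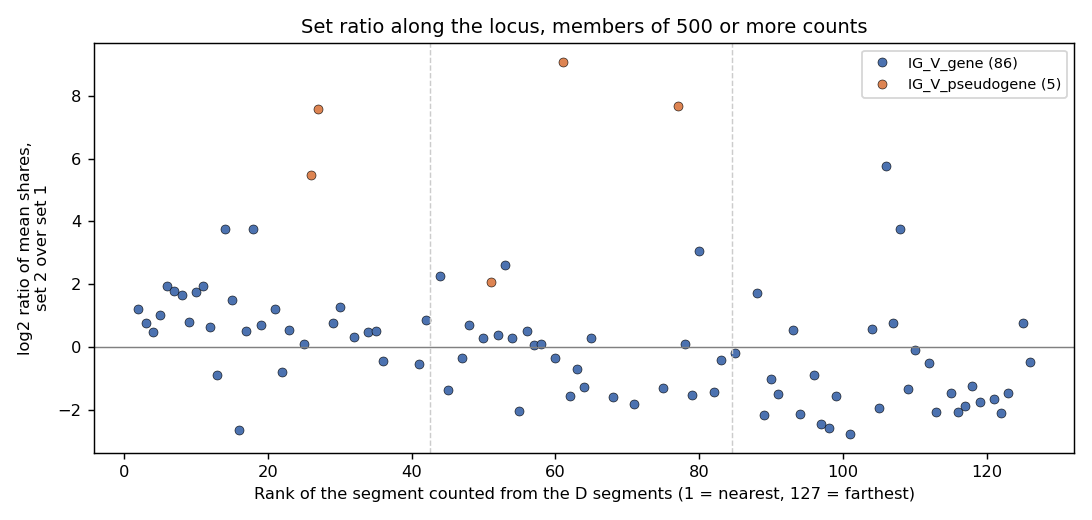
Each point is a segment of 500 or more counts, placed by its rank from the D segments and by the log2 ratio of its mean share in set 2 to that in set 1, with dashed lines between the nearest 42, the middle 42 and the farthest 43. Near segments lie mostly above 0 (27 of 32) and far ones mostly below (24 of 31), and the 5 pseudogenes shown (orange) lie above 0. The 500-count cut was on counts summed over both sets. Most of these pseudogenes met it only through set 2, such as Ighv1-33 (9 counts in set 1, 700 in set 2), so their side was set by the choice.

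The evenness of usage was also close within sets. The effective number of segments, the number of equally used segments that would give the same Shannon diversity, was 57.7, 62.1 and 56.4 in DMSO A, B and C, against 57.2, 62.8 and 64.0 in Cpd10 A, B and C. It was higher in all 3 libraries of set 2, and the treatments overlap (58.7 ± 3.03 in DMSO, 61.3 ± 3.65 in Cpd10, exact permutation p = 0.3, adjusted 0.5). Counted by the inverse Simpson index, which weights abundant segments more, it was 42.0, 43.7 and 41.5 in DMSO and 41.5, 44.8 and 45.8 in Cpd10. Both measures include the pseudogene members, most of which met the count rule only through set 2. The higher values in set 2 may therefore rest in part on the choice of members. With functional members alone, the effective number differed by 0.607 between treatments, Cpd10 minus DMSO, against 2.60 over all members. Its difference between the sets was not tested on functional members alone. No segment took over 7.23% of the Ighv counts of any library.

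A smaller number of segments departed in a single library. Ighv15-2, the only member of its family, took 0.249% in DMSO A, 0.0707% in DMSO C and 0.136% in Cpd10 A, a 3.52-fold span within set 1, and 0.171%, 0.179% and 0.126% in set 2. Ighv1-62-2 held 3 counts in Cpd10 B, against 27 in DMSO B and 34 in Cpd10 C. It shares 99.7% of its aligned bases with Ighv1-71, and reads from such pairs could be credited to either. Ighv1-36 held 8 counts in Cpd10 C, against 62 in DMSO B and 66 in Cpd10 B.

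The amount of Ighv RNA, as opposed to its make-up, varied most in 1 library. Ighv members took 0.306%, 0.197% and 0.664% of all counts in DMSO A, B and C (130908, 72476 and 271399 counts), against 0.385%, 0.161% and 0.166% in Cpd10 A, B and C (172911, 65826 and 63272 counts). DMSO C was the highest and the set 2 libraries the lowest. The mean was 0.389 ± 0.244% in DMSO and 0.238 ± 0.128% in Cpd10 (exact permutation p = 0.5, adjusted 0.5), and the groups overlap. Without DMSO C the difference shrank from -0.151 to -0.0136 percentage points. Within set 1 Cpd10 A lay between the 2 DMSO libraries, and within set 2 both Cpd10 libraries lay below DMSO B.

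By edgeR's quasi-likelihood test on all genes, 0 of the 122 members tested were called between Cpd10 and DMSO at an adjusted p under 0.05, where 0.370% of 15136 genes were. DESeq2 also called 0 members, where it called 356 of 17783 genes. At an unadjusted p under 0.05 edgeR found 0 of the 122, against 8.39% of all genes. DESeq2 found 5 of 124 members, where it found 1474 of 25082 genes. The members' median log2 fold change was -0.54, with 95 of 122 lower in Cpd10, and the median of all genes was -0.0012. With the library set as a term, a fit chosen with the sets known, 0 members were called (1 at an unadjusted p under 0.05, Ighv1-23), against 3.96% of genes. The median was then -0.26, with 104 of 122 lower, against -0.011 for all genes. That lean to lower values rests largely on DMSO C: without it, 58 of 123 members tested were lower with the set as a term, and 69 of 123 on treatment alone.

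The 6 members with the smallest p were Ighv1-84, Ighv7-3, Ighv1-63, Ighv11-2, Ighv1-54 and Ighv1-11. Ighv1-84 stood at 7.10, 7.29 and 11.5 CPM in DMSO A, B and C, against 6.98, 5.68 and 5.46 CPM in Cpd10 A, B and C, so the groups do not overlap, by a narrow margin. Its log2 fold change was -0.51 (SE 0.25, adjusted p = 0.685 by edgeR). Ighv7-3, the most used segment of its family, stood at 33.8, 40.3 and 108 CPM in DMSO against 38.0, 26.8 and 30.6 CPM in Cpd10, and its log2 fold change was -0.93 (SE 0.45, adjusted p = 0.687 by edgeR). Here the DMSO mean rests on DMSO C and the groups overlap. Ighv11-2, of a family known for use in B1 cells, stood at 1.07, 1.62 and 4.53 CPM in DMSO against 1.52, 0.888 and 0.931 CPM in Cpd10 (log2 fold change -1.11, SE 0.59, adjusted p = 0.714 by edgeR). The other 3 had log2 fold changes of -0.84 (Ighv1-63), -0.60 (Ighv1-54) and -1.11 (Ighv1-11). In all 6 the highest library was DMSO C, which was also the library with the most Ighv RNA.

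Ighv3-5 and Ighv12-3, whose usage shares alone did not overlap between treatments, were both higher in Cpd10. Ighv3-5 took 0.0382%, 0.0483% and 0.0372% in DMSO and 0.0555%, 0.0608% and 0.0711% in Cpd10, and Ighv12-3 took 0.0527%, 0.0607% and 0.0450% in DMSO and 0.0648%, 0.0608% and 0.101% in Cpd10. Both rest on few counts, 35 to 101 per library for the former and 40 to 122 for the latter. In CPM both overlapped, with log2 fold changes of -0.068 (Ighv3-5) and -0.14 (Ighv12-3).

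Summed by family and fitted with all other genes, 0 of 15 families were called, where 0.413% of 15028 rows were. At an unadjusted p under 0.05 edgeR found 0 families, where it found 1284 of the 15028 rows. DESeq2 found 2 of 15 families, where it found 1484 of 24949 rows. By edgeR the fitted value was lower in Cpd10 in 14 of 15, with Ighv12 the exception, and the median was -0.58. Without DMSO C, 9 of 15 were lower, and 8 of 15 with the set as a term. Ighv11 had the smallest p, with a log2 fold change of -1.17 (SE 0.51, adjusted p = 0.597 by edgeR), and Ighv1 had -0.90 (SE 0.77, adjusted p = 0.848 by edgeR). With the set as a term the values drew closer together, with a median of -0.30 and 0 of 15 called (lowest edgeR adjusted p = 0.375). Ighv1 was then at -0.30 (SE 0.38).

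**Figure D5:**
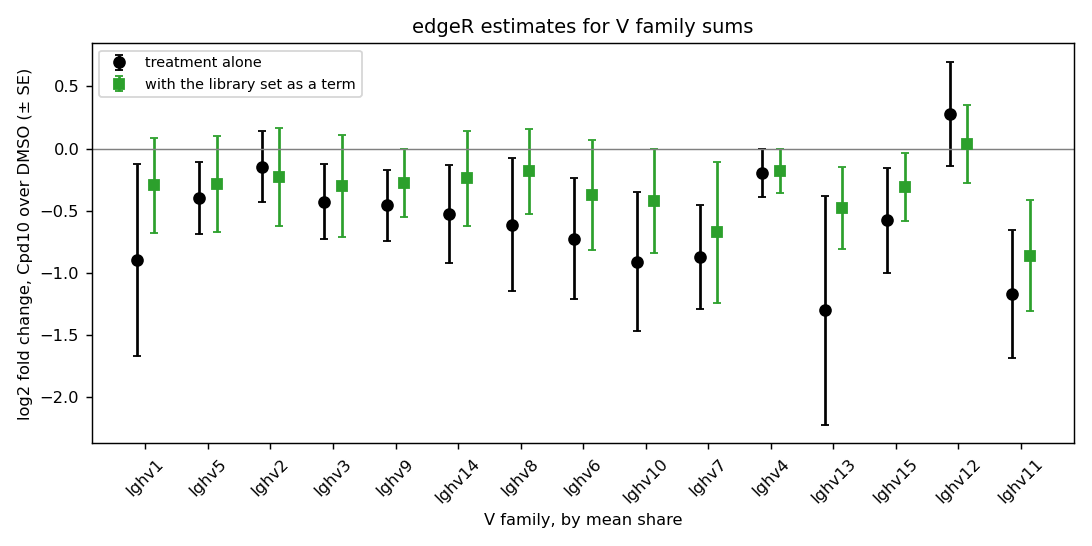
Points give the edgeR log2 fold change of Cpd10 over DMSO for the summed counts of each V family, with bars of 1 SE, from the fit on treatment alone (black circles) and with the library set as a term (green squares). In each fit 14 of 15 values lie below 0. Bars of 1 SE reach 0 for 1 of these 14 on treatment alone and for 7 with the set term, and the latter values lie closer together, with a median of -0.30 against -0.58. Intervals of 2 SE reach 0 for 12 of the 14 on treatment alone and for 14 of 14 with the set term.

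Among the genes that act with the V segments, 7 of the 8 heavy chain constant regions set the same libraries apart, 6 higher in set 1 and Igha higher in set 2, while Ighe overlapped between the sets. Of all genes tested, 35.9% did not overlap between the sets. Ighm, the IgM constant region, stood at 7463, 5894 and 17922 CPM in DMSO A, B and C, against 12301, 6207 and 6234 CPM in Cpd10 A, B and C. Ighd, the IgD constant region spliced from the same transcript in cells that have not switched, stood at 190, 19.6 and 327 CPM in DMSO against 166, 21.0 and 24.1 CPM in Cpd10, high in set 1. Igha, the IgA constant region, was high in set 2, at 20.4 CPM in DMSO B and 12.9 and 13.8 CPM in Cpd10 B and C, against 3.54, 5.21 and 1.56 CPM in DMSO A, DMSO C and Cpd10 A. With the set as a term it was called lower in Cpd10, the one call among the 8 (log2 fold change -0.99, SE 0.24, adjusted p = 0.0387 by edgeR), and in the fit on treatment alone its log2 fold change was -0.044 (edgeR adjusted p = 0.994). The fit with the set term called 3.96% of all genes. For each 100 counts over the 8 constant regions there were 16.8 ± 1.05 Ighv counts in set 1 and 11.6 ± 1.01 in set 2, and 15.5 ± 2.61 in DMSO and 12.9 ± 3.20 in Cpd10.

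Of the 9 genes formed by these 8 and Jchain, the joining chain of secreted IgM and IgA, 0 were called on treatment alone. Ighe, the IgE constant region that interleukin 4 induces, had the smallest p (4637, 4980 and 8056 CPM in DMSO against 3436, 4105 and 4100 CPM in Cpd10, log2 fold change -0.60, SE 0.25, adjusted p = 0.569 by edgeR), and its groups do not overlap. Pou2f1, Pou2f2 and Pou2af1, the octamer-binding factors and their co-activator that act on V promoters, had 0 of 3 called. Rag1, Rag2 and Dntt, which act while V segments are being joined, were at 0 counts in all 6 libraries.

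Over 8 markers of antibody-secreting cells, CPM summed to 3237, 3510 and 5472 in DMSO A, B and C, against 3914, 3721 and 3637 in Cpd10 A, B and C, with 0 of 8 called on treatment alone. The high sum in DMSO C came mostly from Jchain: over the other 7 markers the sums were 2508, 3103 and 3415 CPM in DMSO against 3181, 3459 and 3413 CPM in Cpd10. The markers did not share 1 pattern, since 6 of the 8 were highest in DMSO C, Irf4 in Cpd10 A and Mzb1 in Cpd10 B. Jchain was at 730, 407 and 2057 CPM in DMSO against 732, 262 and 224 CPM in Cpd10. Sdc1, the surface marker CD138, was at 39.2, 10.7 and 87.7 CPM in DMSO against 37.7, 7.41 and 6.87 CPM in Cpd10. Both were highest in DMSO C and low in set 2, like the Ighv share of counts, and their part in it was not tested. Mzb1, a chaperone of antibody-secreting, marginal zone and B1 cells, ran the other way, at 820, 1437 and 1001 CPM in DMSO against 770, 1523 and 1352 CPM in Cpd10, high in set 2. Irf4, a regulator of plasma cell fate, rose with the set as a term (log2 fold change 0.49, SE 0.10, adjusted p = 0.0131 by edgeR), the one call among the 8, beside 3.96% of all genes.

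The labelled cell type was checked on 7 B cell markers, of which 0 were called on treatment alone. The sets did not overlap in 4 of the 7, 2 higher and 2 lower in set 2, beside 35.9% of all genes. DMSO and Cpd10 did not overlap in 1 of the 7, lower in Cpd10, beside 14.6% of all genes. For 2 of these markers the values were as follows. Cd79a, a signalling chain of the B cell receptor, stood at 642, 758 and 815 CPM in DMSO against 598, 829 and 775 CPM in Cpd10, and Pax5, a factor of B cell identity, at 562, 451 and 577 CPM against 532, 433 and 455 CPM. Of 7 marginal zone and B1 markers, 0 were called, and they summed to 60.8 to 107 CPM in set 1 and 67.2 to 72.5 CPM in set 2. DMSO and Cpd10 did not overlap in 3 of the 7, beside 14.6% of all genes, 1 higher in Cpd10 and 2 lower. Zbtb32, a repressor found in B1 and activated B cells, stood at 3.05, 3.63 and 3.24 CPM in DMSO against 4.27, 11.6 and 11.4 CPM in Cpd10, without overlap (log2 fold change 1.46, SE 0.39, adjusted p = 0.275 by edgeR). Bhlhe41, a factor of B1 cells, stood at 25.2, 34.9 and 41.8 CPM in DMSO against 16.1, 22.7 and 23.5 CPM in Cpd10 (log2 fold change -0.71, adjusted p = 0.390 by edgeR). Cd1d1, high on marginal zone B cells, stood at 9.45, 5.67 and 10.9 CPM against 4.52, 4.21 and 5.46 CPM (log2 fold change -0.88, adjusted p = 0.414 by edgeR). T cell markers (6 genes) summed to 0.617 to 1.71 CPM, natural killer markers (3 genes, Ncr1 at 0) to at most 0.633 CPM and myeloid markers (5 genes, S100a8 at 0) to at most 1.27 CPM in any library.

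Read sharing between copies limits the single segment values more than the family sums. Of the 127 members, 18 share no stretch of 50 bases with another Ighv row, and 15 share at least 50% of theirs. These 15 held 7.07 to 11.6% of the Ighv counts of a library, and 12 members have a relative of at least 98% identity. The sources used here do not say how reads that fit several copies were counted. Ighv1-2 and Ighv1-5 each overlap an annotated miRNA gene.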

How the data were processed

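RNA of 6 libraries was sequenced, 3 per treatment. The authors deposited whole-number counts per gene in 1 table, not normalised. STAR 2.7.10a, featureCounts 2.0.6, DESeq2 and the build mm10 (GRCm38) are named, per the submitters' processing notes; their roles, and the handling of strand and of reads that fit several genes, are not given in the sources used here. Symbols, biotypes, coordinates and sequences are those of GENCODE M21, which held 54809 of the 54838 identifiers. Libraries held 36873204 to 44859930 counts, so the 63272 to 271399 Ighv counts per library make counting error small for families and large for segments near 50 counts in all.

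Usage shares are percentages of the counts over the 127 members. Genes, and separately family sums with all other genes, were compared with edgeR 4.0.16 in R 4.3.3 (TMM, filterByExpr, robust quasi-likelihood fit, Benjamini-Hochberg adjusted p under 0.05). The routine was tested on simulated data without a difference between library sets, so that test does not show its power on these libraries. Log2 fold changes are Cpd10 minus DMSO. DESeq2 1.42.0 is an alternative. Shares, the Ighv share of counts, the effective number and the share near the D segments were compared by exact two-sided permutation tests. A p-value here reflects the spread among the 6 libraries alone, and that spread may be technical.

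The members and lists were chosen with earlier results of these data known. Segments named are the 12 with the highest mean share, the most used of each family, the 6 with the smallest p, the 8 of 500 or more counts with the highest ratio between libraries, those found in 1 set only and those at the threshold. Ighv1-14, Ighv3-2 and Ighv3-1 sequences, Ighv5-16, Ighv1-38, Ighv1-49, Ighv4-1, Ighv12-1, Ighv1-23, Ighv3-5 and the 5 members that did not pass the filter were named after their values were seen. The alternatives were other scaling, no filter, other member thresholds, functional members alone, the set, a replicate block and each library left out. Results for 2 genes of the fixed lists are not reported here.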

Additional observations from a re-analysis of the deposited data

How the results depend on the processing

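The count of called segments stayed at 0 with DESeq2, upper-quartile scaling, no filter on low counts, the library set as a term, member thresholds of 10 and 500 counts and each library left out (0 to 0), and so did that of called families, also with functional rows alone. Of all genes, upper-quartile scaling called 50 of 15136 and the fit without a filter 194 of 25099. With 1 library left out, calls ran from 0 of 15798 genes (without Cpd10 C) to 100 of 15812 (without DMSO B). Where few genes are called at all, 0 segments says little. The set as a term with DMSO A left out was an alternative added after seeing the data. It called 22 of 126 segments and 5 of 15 families (Ighv9, Ighv1, Ighv6, Ighv5 and Ighv2), all lower in Cpd10. The same fit called 907 of all 15742 genes, and 907 of 15630 rows with family sums. With any other library left out of the set fit, 0 segments and 0 families were called, where 130 to 622 genes were. The cause was not tested. The fit without DMSO A keeps 1 DMSO library in each set, and its set 1 compares DMSO C with Cpd10 A. The Ighv1 share difference of -8.81 points ran from -17.9 to -4.22 with a library left out and was 0.000157 as the mean of within-set differences. The share near the D segments (8.56 points) ran from 4.29 to 17.1 with a library left out and was 0.175 within sets, and the effective number (2.60) ran from 1.26 to 4.68 and was 0.708 within sets. With functional members alone the latter was 0.607. The Ighv share of counts (-0.151 points) ran from -0.247 to -0.0136 and was -0.0662 within sets. Its ends are those without DMSO B and without DMSO C.

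Same-lettered libraries are not paired by these data. Deviations from group means over 12986 genes correlated at 0.36 for A, 0.54 for B and -0.43 for C. A replicate block called 0 segments and 0 families, beside 49 of all 15136 genes. It left the Ighv1 difference at -8.81 points (exact sign-flip p = 0.75, where 3 pairs cannot go below 0.25).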
